A study of Arabidopsis thaliana with 12 samples.

Results

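The small subunit of the cytosolic ribosome in Arabidopsis thaliana is built from ribosomal proteins that are each encoded by a small family of paralogous genes. The genes examined here are 60 loci that encode 22 of these protein families, from RPSa to RPS20. Members were taken by locus identifier from the annotation of the Affymetrix ATH1 array, with no filter on expression. Of the 60 loci, 33 had a probe set that the annotation assigns to that locus alone, and these were the members measured, out of 13286 genes so named on the array. A further 10 loci were listed only in 5 probe sets shared by several genes, and for 17 no probe set was named. The annotation used here named genes for 14016 of the array's 22810 probe sets, so a locus with none named may still be on the array. Most of the 17 loci carry a gene symbol, while the 33 measured loci are listed by locus identifier only. The measured members are therefore not a random part of the 60. The family names come from general knowledge of Arabidopsis ribosomal protein nomenclature and not from the files.

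The series measured RNA from roots of 7-day-old seedlings on 12 arrays, in 4 groups of 3. One line, ara1OX, carried 35S:Ara1YFP in the Col-0 background, which is a fusion of ARABIDILLO-1 to a yellow fluorescent protein under a promoter active in most cells, and it was compared with wild-type Col-0. The other, ara1/2mut, was the double mutant of ARABIDILLO-1 and ARABIDILLO-2 in the Col-3 background, and it was compared with wild-type Col-3 (stock N908). All groups were grown alike on 0.5 strength medium with 1% agar, first for 2 days at 4 °C and then at 24 °C, with days of 16 h and nights of 8 h. The ARABIDILLO proteins carry Armadillo repeats and an F-box and are known for promoting lateral root formation, and the series was made to find genes that depend on them. Their own transcript levels are not analysed here, because neither gene had a named probe set, so the labels could not be checked against them.

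The 40S subunit binds the messenger RNA, carries it through a channel between its head and body, and decodes it. Plant ribosomal protein genes are known to be expressed most strongly where cells divide and grow, which in roots means the meristems and young lateral roots. Several Arabidopsis ribosomal protein mutants have short roots or narrow, pointed leaves, and paralogs of 1 family can differ in where they are expressed. The position of each protein in the subunit is stated below as it is known from the yeast ribosome.

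The measured members covered 18 families. RPS4, RPS7, RPS14 and RPS19 had all 3 of their loci measured. A further 7 families had 2 measured loci each, among them RPS2, RPS3a, RPS9, RPS10, RPS12 and RPS15, and another 7 families had 1. In 4 families, RPSa, RPS6 and RPS18 among them, no locus had a probe set of its own. None of the 33 probe sets carried a suffix that marks shared probes. Cross-hybridization between close paralogs was not tested, so the members of 1 family are less certain as separate genes than members of different families. In the gene order of assembly TAIR10.1 only 1 pair of members were neighbours, AT5G09500 and AT5G09510, both of the RPS15 family.

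The deposited values are MAS5 signals, intensities on a linear scale that the authors had scaled to a common trimmed mean of 100 on each array. This sets every array to one overall level, and a shift common to the whole transcriptome would be hidden by it. Of the 33 members, 30 reached the filter on mean log2 signal (4.49, a signal of 22.4) and were tested with limma among 13648 probe sets. The other 3 had low signals. AT5G09500 of the RPS15 family lay between 2.04 and 27.4 over the 12 arrays, and AT2G39590 of the RPS15a family between 0.51 and 15.7. The labels do not say that replicates came from separate cultures, so the spread behind each p-value may be technical. The RNA is from whole roots, so fewer cells of a type and less RNA per cell cannot be told apart.

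Replicates correlated across probe sets with r from 0.896 to 0.941 in ara1OX, from 0.925 to 0.960 in ara1/2mut and from 0.951 to 0.973 in the wild types. Spiked-in hybridization controls stood apart in ara1OX replicate 3, with a mean log2 signal of 10.8. The root hair markers EXPA7 and EXPA18 were both measured. Their summed signal was 431 to 522 in Col-0 and 529 to 635 in ara1OX, which did not overlap. It was 346 to 440 in Col-3 and 401 to 526 in ara1/2mut, which overlapped. Whether the share of root hair cells differed was not tested. Of 4 shoot markers RCA and LHCB4.1 were measured, with a summed signal of 152 to 339. Of 9 markers of dividing root cells 0 had a named probe set, so the share of dividing cells, where these genes are known to be most active, was not tested.

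As a set, the 40S genes overlapped in level across the 4 groups. The set level, taken as the mean log2 signal of the 30 tested members on an array, was 9.02, 9.35 and 9.45 in Col-0. It was 9.15, 9.33 and 9.27 in ara1OX, 9.22, 9.13 and 9.31 in Col-3, and 8.82, 9.09 and 9.32 in ara1/2mut. The ranges overlapped between each line and its wild type and between the wild types. The mean for Col-0 was 9.27 ± 0.23 (SD, n = 3) and that for ara1OX 9.25 ± 0.09, while Col-3 had 9.22 ± 0.09 and ara1/2mut had 9.08 ± 0.25. The difference was -0.02 on the log2 scale for ara1OX against Col-0 and -0.14 for ara1/2mut against Col-3, which is 9.53% lower in the mutant. Each was smaller than the SD within groups, which was 0.18 over all 4.

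**Figure D1:**
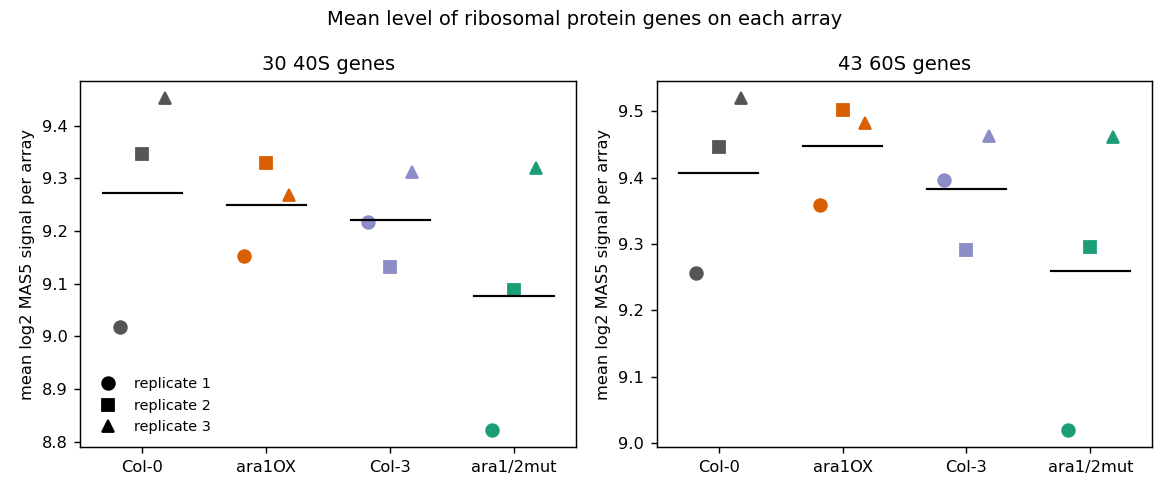
Mean log2 MAS5 signal on each array of the 30 tested 40S genes (left) and of 43 cytosolic 60S genes (right), by group; symbols are replicates and lines are group means. In both panels the arrays of each line overlap those of its own wild type, and ara1/2mut replicate 1 holds the lowest 40S value, 8.82.

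The lowest and the highest set levels came from single arrays on which most members moved together. On ara1/2mut replicate 1, 28 of the 30 members lay below their own mean over the 12 arrays, and 16 were at the lowest of all 12. On Col-0 replicate 3, 30 of 30 lay above their own mean and 12 were at the highest of all. Col-0 replicate 1 was low for 25 of 30 members, with 6 at their lowest. The mutant array also had the highest ratio of 3′ to 5′ signal for actin, which rises as RNA degrades, at 25.2 against 7.12 to 17.1 on the other arrays. It had the lowest weight, 0.418, when limma weighted the arrays. Its ubiquitin ratio, 2.29, was second to that of ara1OX replicate 3, 2.38. Its GAPDH ratio, 1.16, was the highest, with 0.75 to 1.14 on the other arrays. The part of RNA quality in the low level of this array was not tested.

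**Figure D2:**
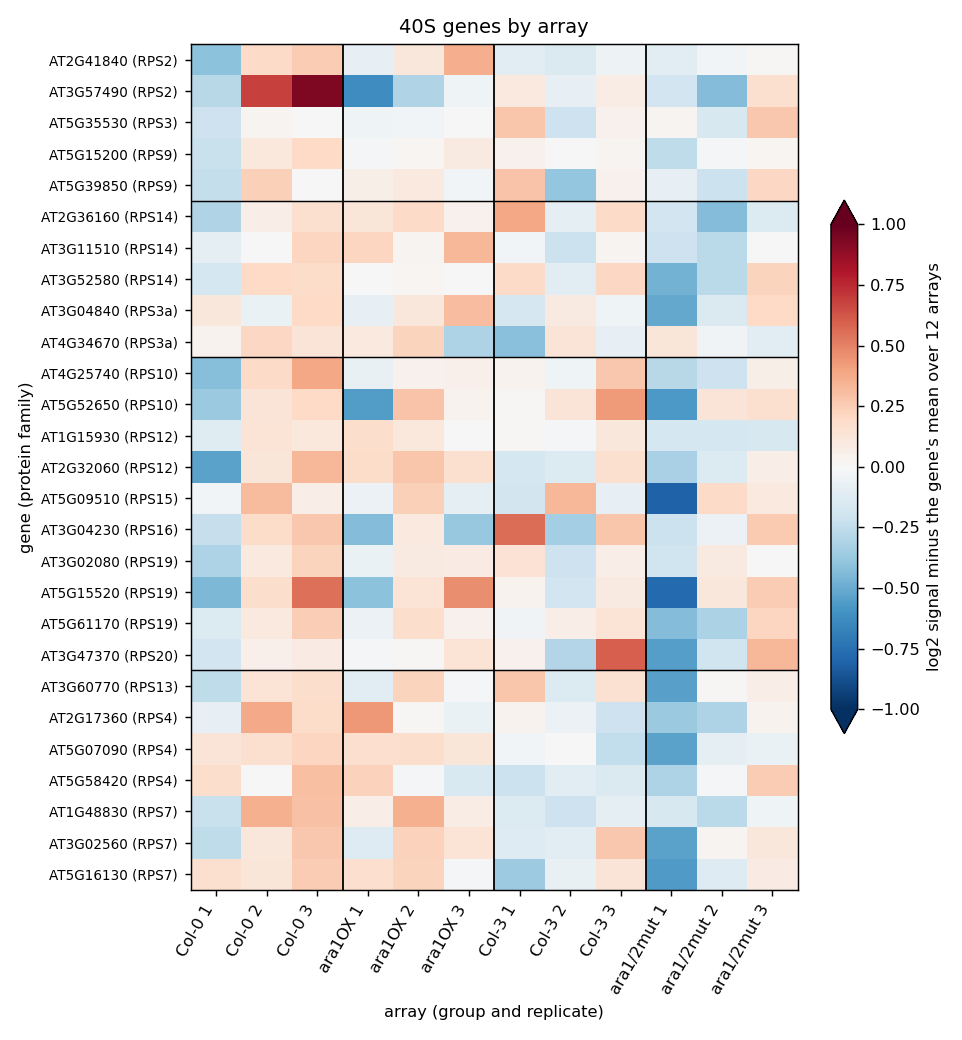
Log2 signal of 27 tested 40S genes (rows, ordered by site in the subunit) on each array (columns), minus the gene's mean over the 12 arrays; red is above and blue below the mean. The column of ara1/2mut replicate 1 is blue for 25 of 27 genes and that of Col-0 replicate 3 is red for all 27.

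This movement together was a property of most members. After the group means were removed, the correlation between pairs of members over the 12 arrays averaged 0.462, and 397 of 435 pairs (91.3%) were above 0. Over all 13648 probe sets the average was 0.00184. Among the tenth of probe sets with the highest signal, a set that held 18 of the 30 members, it was 0.0406, and after quantile normalization the members' average was 0.377. All pairs share the same arrays, so these values describe the arrays and are given with no test. The 43 measured 60S genes averaged 0.290 among themselves and 0.378 with the 40S genes. Paralogs of the same protein averaged 0.560 over 17 pairs, against 0.458 over 418 pairs of different proteins.

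Against the mean of the other members, 29 of 30 had a correlation above 0, with a median of 0.716. The highest belonged to AT3G02560 of the RPS7 family, a body protein, at 0.920. Its signals were 746, 965 and 1071 in Col-0, 814, 1042 and 978 in ara1OX, 815, 827 and 1071 in Col-3, then 614, 908 and 961 in ara1/2mut. These follow the set level, with the lowest value on ara1/2mut replicate 1. AT4G34670 of the RPS3a family was the only member below 0, at -0.19. Its signals were 2233, 2511 and 2380 in Col-0, 2332, 2537 and 1758 in ara1OX, 1630, 2384 and 2056 in Col-3, and 2366, 2124 and 2015 in ara1/2mut. It was not below its own mean on Col-0 replicate 1 or ara1/2mut replicate 1, where most other members were low.

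In ara1OX roots 0 of 30 members passed the test against Col-0 at a limma adjusted p under 0.05, where 0.022% of all probe sets passed. At an unadjusted p under 0.05 there was 1 member, against 6.43% of all probe sets. Of the 30 members 16 had a difference above 0 and 14 below, a share of 46.7% below against 55.4% of all. The median difference was 0.01 on the log2 scale, against -0.03 over all probe sets. In 0 of 30 did the 3 ara1OX arrays lie apart from the 3 Col-0 arrays, against 11.4% of all probe sets in either direction and 6.57% with ara1OX lower. The 95% interval lay within a 1.5-fold difference in either direction for 22 of the 30 members and within a 2-fold difference for 29. The exception to the latter was AT3G57490.

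In ara1/2mut roots 0 of 30 members passed against Col-3, where 0% of all probe sets passed. At an unadjusted p under 0.05 there was 1 member, against 3.56% of all. Of the 30 members 26 had a difference below 0, against 48.4% of all probe sets, and the median was -0.14 against 0.01. Without ara1/2mut replicate 1 the median was 0.00 and 15 of 30 lay below 0, against 48.1% of all probe sets. Without ara1/2mut replicate 3 it was -0.28, with 28 below 0, against 48.0% of all. In the latter fit 6 members had an unadjusted limma p under 0.05, and the share of all probe sets at that p is not given here. In either fit 0 members passed. The groups did not overlap for 2 members, both lower in the mutant, against 4.02% of all probe sets in that direction and 9.1% in either. The 95% interval lay within a 1.5-fold difference for 16 of 30 members and within a 2-fold difference for 29.

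Between the wild types 0 of 30 members passed for Col-3 against Col-0, where 0% of all probe sets passed. At an unadjusted p under 0.05 there were 0 members, against 5.08% of all. The median difference was -0.02, with 19 members below 0 against 50.4% of all probe sets. Without Col-0 replicate 1 it was -0.16 with 25 below 0, and the ara1OX median, which uses the same Col-0 arrays, was then -0.12 with 25 below 0. Of all probe sets 49.8% and 55.0% lay below 0 in these comparisons without that array. The wild-type groups did not overlap for 2 members, both lower in Col-3, against 7.1% of all probe sets in that direction and 13.2% in either. The difference between the change in ara1OX and the change in ara1/2mut passed for 0 of 30 members, where 0.0147% of all probe sets passed. At an unadjusted p under 0.05 it had 1 member, against 5.3% of all. Its median was 0.12 against -0.04, with 4 members below 0 against 55% of all probe sets. Without ara1/2mut replicate 1 that median was 0.03 with 13 below 0, and without ara1/2mut replicate 3 it was 0.27. Without Col-0 replicate 1 it was 0.03 with 14 below 0, and with all arrays numbered 1 left out it was -0.08 with 20 below 0. In the fits with these counts 53.8% to 54.7% of all probe sets lay below 0.

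**Figure D3:**
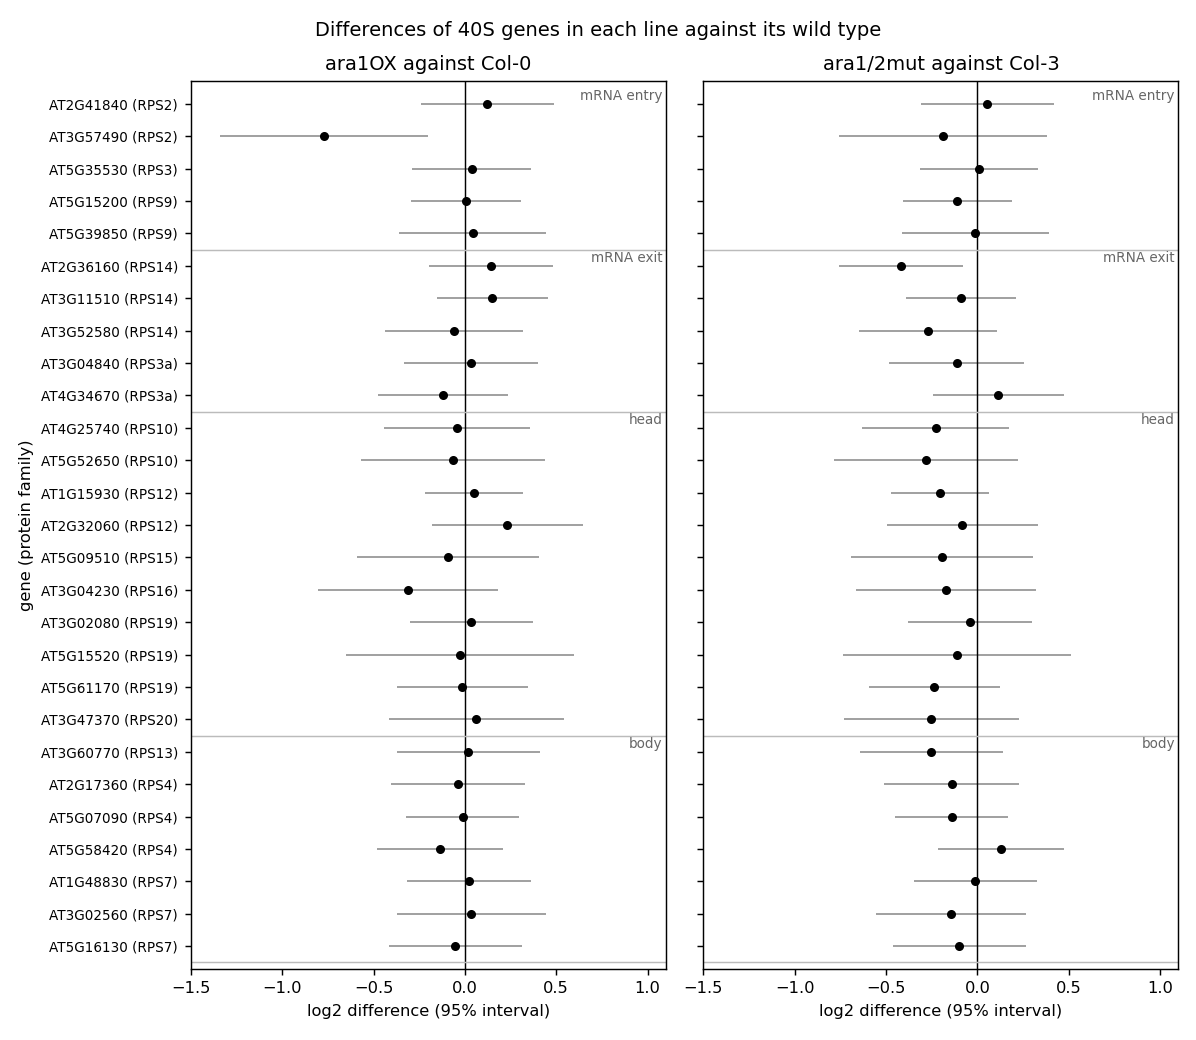
Log2 difference of 27 tested 40S genes with 95% intervals from limma, for ara1OX against Col-0 (left) and ara1/2mut against Col-3 (right), ordered by site in the subunit. In each panel 26 of the 27 intervals include 0; the exceptions are AT3G57490 on the left and AT2G36160 on the right.

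At the entry of the messenger RNA channel sit RPS2, RPS3 and RPS9, and RPS2 held the largest single difference in ara1OX. AT3G57490, an RPS2 gene, had signals of 85.3, 166 and 198 in Col-0, 67.3, 83.9 and 100 in ara1OX, 110, 97.9 and 109 in Col-3, and 90.5, 76.6 and 115 in ara1/2mut. Col-0 replicates 2 and 3 were its highest arrays, while Col-0 replicate 1 lay within the ara1OX range, so the groups overlapped. Its log2 difference in ara1OX was -0.77 (SE 0.27, limma p 0.0112, adjusted p 0.630), which became -1.13 without Col-0 replicate 1 and -0.53 without Col-0 replicate 3. In the mutant it was -0.19 (SE 0.27). The test of the difference between these changes gave -0.58 (SE 0.38, limma adjusted p 0.917).

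Its paralog AT2G41840 had signals of 1330, 2015 and 2098 in Col-0, 1670, 1907 and 2273 in ara1OX, 1639, 1597 and 1701 in Col-3, and 1627, 1726 and 1774 in ara1/2mut. The ara1OX and Col-0 ranges overlapped, with a log2 difference of 0.12 (SE 0.17), which was -0.09 without Col-0 replicate 1. The third RPS2 locus, AT1G58380, was listed only in a probe set shared with loci outside the set, which had a difference of -0.04 (SE 0.17) in ara1OX.

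The remaining genes at the entry site lay close to 0 in both lines. AT5G35530, an RPS3 gene, had 0.04 in ara1OX and 0.01 in ara1/2mut (SE 0.15 each). Its signals were 1220, 1433 and 1414 in Col-0, 1369, 1381 and 1409 in ara1OX, 1704, 1222 and 1449 in Col-3, and 1435, 1263 and 1695 in ara1/2mut, with both lines inside or overlapping the range of their wild type. The shared RPS3 probe set for AT2G31610 and AT3G53870 had -0.06 and -0.00 (SE 0.23 each). The RPS9 genes AT5G15200 and AT5G39850 lay between -0.11 and 0.04 in both lines. In all 5 entry genes the median was 0.04 in ara1OX and -0.01 in ara1/2mut.

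RPS14 and RPS3a lie near the exit of the messenger RNA channel, on the platform of the subunit. The RPS14 gene AT2G36160 had the smallest p of the members in the mutant. Its signals were 1448, 1034 and 1263 in Col-3 and 966, 818 and 1003 in ara1/2mut, against 899, 1160 and 1232 in Col-0 and 1201, 1264 and 1139 in ara1OX. Every mutant array was below every Col-3 array, but the mutant overlapped the Col-0 range. The log2 difference was -0.42 (SE 0.16, limma p 0.0194, adjusted p 0.999), with a range of -0.55 to -0.30 when single arrays were left out. In ara1OX it was 0.14 (SE 0.16), and the difference between the changes was 0.56 (SE 0.23, limma p 0.0255, adjusted p 0.905).

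The other RPS14 genes were also lower on average in the mutant, with overlapping groups. AT3G52580 had signals of 487, 396 and 492 in Col-3 and 307, 354 and 499 in ara1/2mut, a log2 difference of -0.27 (SE 0.18). It went to -0.12 without ara1/2mut replicate 1, its lowest array. AT3G11510 had 989, 864 and 1024 in Col-3 and 872, 833 and 1000 in ara1/2mut, a difference of -0.09 (SE 0.14), and 0.15 (SE 0.14) in ara1OX. The RPS3a genes AT3G04840 and AT4G34670 had -0.11 (SE 0.17) and 0.11 (SE 0.17) in the mutant, and 0.03 and -0.12 in ara1OX. For AT4G34670 the mutant value was -0.03 without Col-3 replicate 1, and the ara1OX value was 0.04 without ara1OX replicate 3. Without ara1/2mut replicate 1 the mutant value of AT3G04840 was 0.07. AT3G04840 was low on ara1/2mut replicate 1, at 721 against 915 to 1093 in Col-3, where AT4G34670 was not.

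The head of the subunit, with RPS10, RPS12, RPS15, RPS16, RPS19 and RPS20 among its proteins, was the site where all of the tested members had values below 0 in the mutant, 11 of 11 with a median of -0.20. The body members had 8 of 9 below 0 with a median of -0.14, the exit members 4 of 5 with -0.11, and the entry members 3 of 5. Without ara1/2mut replicate 1 the head had 6 of 11 below 0 with a median of -0.04, the body 4 of 9 with 0.01, the exit 3 of 5 and the entry 2 of 5. Sites were assigned after these values had been seen, and they were not tested against each other. In ara1OX the head members had 5 above 0 and 6 below, with a median of -0.02.

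AT1G15930, an RPS12 gene, was the steadiest of the tested members, with a residual SD of 0.09 on the log2 scale. Its signals were 1310, 1310 and 1323 in ara1/2mut and 1491, 1462 and 1594 in Col-3, against 1361, 1625 and 1585 in Col-0 and 1673, 1588 and 1470 in ara1OX. All 3 mutant arrays lay below all other 9 arrays. The log2 difference against Col-3 was -0.20 (SE 0.13, limma p 0.124, adjusted p 0.999), from -0.23 to -0.17 with single arrays left out. The SE is moderated across probe sets and is larger than the spread of this gene alone. Its paralog AT2G32060 had 354, 363 and 447 in Col-3 and 319, 363 and 418 in ara1/2mut, which overlap, with a difference of -0.08 (SE 0.20). In ara1OX AT2G32060 had the largest positive difference of the members, 0.23 (SE 0.20), from signals of 276, 434 and 504 in Col-0 and 455, 483 and 446 in ara1OX. That value rested on Col-0 replicate 1 and was -0.02 without it.

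The RPS19 gene AT5G61170 had 762, 818 and 859 in Col-3 and 579, 627 and 905 in ara1/2mut, a difference of -0.24 (SE 0.17), with replicate 3 above the Col-3 range. It was -0.11 without ara1/2mut replicate 1 and -0.43 without replicate 3. The RPS10 gene AT5G52650 had 673, 729 and 894 in Col-3 and 448, 729 and 745 in ara1/2mut, a difference of -0.28 (SE 0.24). It was -0.04 without ara1/2mut replicate 1 and -0.41 without replicate 3. Both overlap their wild type, and their lowest array is ara1/2mut replicate 1. The RPS16 gene AT3G04230 had 149, 198 and 209 in Col-0 and 129, 187 and 134 in ara1OX, a difference of -0.31 (SE 0.23, limma adjusted p 0.859) that was next to AT3G57490 in size in this line. These groups overlap, and the difference ran from -0.48 to -0.21 when single arrays were left out. The shared probe sets for RPS16 and RPS20 had -0.14 and 0.16 in ara1OX and 0.07 and -0.10 in ara1/2mut, with adjusted p-values of at least 0.906 in limma.

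The largest difference between the wild types was that of the RPS2 gene AT3G57490, -0.42 (SE 0.27), with overlapping groups. It was -0.17 without Col-0 replicate 3 and -0.78 without Col-0 replicate 1. In the body of the subunit, RPS4 and RPS7 genes had the next largest. AT5G58420, an RPS4 gene, had signals of 427, 377 and 465 in Col-0 and 326, 351 and 342 in Col-3, so that all Col-3 arrays lay below all Col-0 arrays. The log2 difference was -0.31 (SE 0.16, limma adjusted p 0.957). In ara1/2mut it had 305, 373 and 450, overlapping both wild types, with 0.13 (SE 0.16) against Col-3, and -0.01 without ara1/2mut replicate 3. In ara1OX it had 443, 373 and 340, with -0.14 (SE 0.16) against Col-0.

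AT5G07090, a second RPS4 gene, was the other member whose wild types did not overlap. Its signals were 704, 721 and 750 in Col-0 and 635, 645 and 545 in Col-3, a difference of -0.26 (SE 0.15, limma adjusted p 0.968). It had 726, 728 and 702 in ara1OX and 446, 608 and 616 in ara1/2mut, and both lines overlapped their wild type. The third, AT2G17360, had a difference of -0.24 (SE 0.17) between the wild types, which overlapped. The RPS7 genes AT1G48830 and AT5G16130 had -0.29 (SE 0.16) and -0.28 (SE 0.17), and their groups overlapped too. In AT1G48830 the signals were 833, 1243 and 1191 in Col-0 and 884, 842 and 908 in Col-3.

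**Figure D4:**
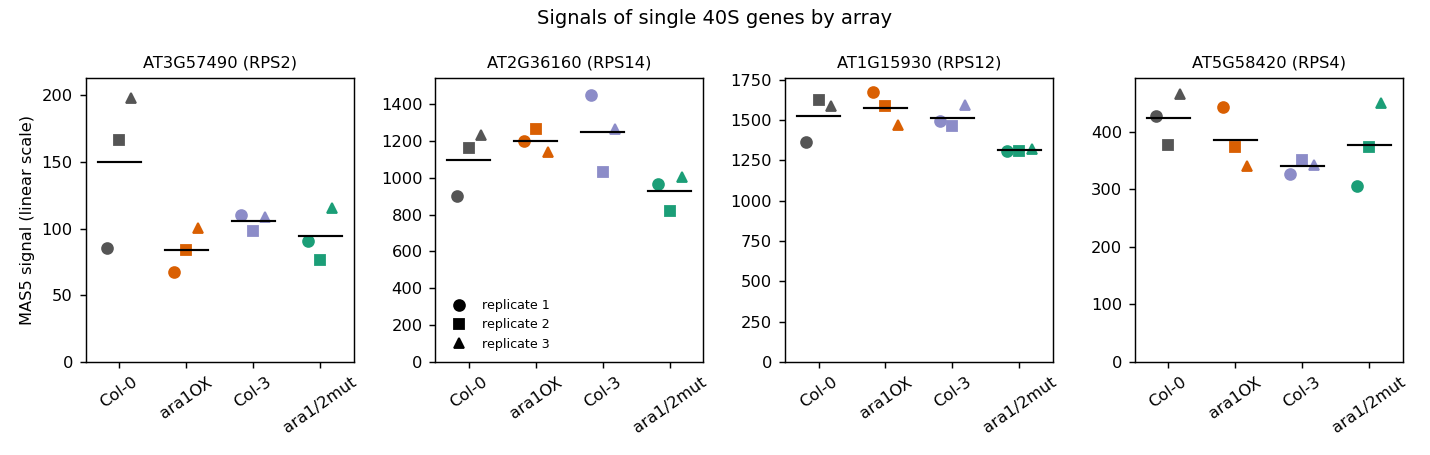
MAS5 signal (linear scale) of 4 single 40S genes on each array, by group; symbols are replicates and lines are group means. The 3 ara1/2mut arrays lie below the 3 Col-3 arrays for AT2G36160 and AT1G15930, the Col-3 arrays lie below the Col-0 arrays for AT5G58420, and for AT3G57490 the ara1OX and Col-0 arrays overlap.

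RPS13 also lies in the body. The RPS13 gene AT3G60770 had 1287, 965 and 1183 in Col-3 and 730, 1071 and 1110 in ara1/2mut, a difference of -0.25 (SE 0.18) that was -0.06 without ara1/2mut replicate 1. Its lowest mutant array was replicate 1, and replicates 2 and 3 lay within the Col-3 range.

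The ratio between paralogs of a family changed little in most pairs. Within the 11 families with several measured members there were 19 pairs, 17 of them with both members above the filter, and the log2 ratio of the pair was taken on each array. Probe sets differ in how well they hybridize, so only the change of this ratio between groups is read. Over the 17 pairs the median size of the change was 0.08 in ara1OX, 0.13 in ara1/2mut and 0.11 between the wild types. The ratios did not overlap for 2, 2 and 3 pairs. With 3 arrays against 3 the smallest p that the exact two-sided permutation test can give is 0.1, so no pair could pass, and each of these 7 had that p. Of all single probe sets 11.4%, 9.1% and 13.2% did not overlap in the same comparisons. The share over other pairs of probe sets is not given here.

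The RPS2 pair AT2G41840 and AT3G57490 had the largest change among the 17. Its log2 ratio was 3.96, 3.60 and 3.41 in Col-0 and 4.63, 4.51 and 4.50 in ara1OX, so the ranges lay apart. The change was 0.89, with group values of 3.66 ± 0.28 and 4.55 ± 0.07 (SD, n = 3, exact permutation p 0.1). It ran from 0.77 to 1.05 when single arrays were left out. In Col-3 the ratio was 3.89, 4.03 and 3.96, which was 0.30 above Col-0 on average, and in ara1/2mut it was 4.17, 4.49 and 3.94. Col-0 replicates 2 and 3 had the lowest ratios of the 12 arrays. In ara1OX no other pair above the filter changed by more than 0.5.

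Among pairs with both members above the filter, the RPS14 pair AT2G36160 and AT3G11510 had the largest change in the mutant. The ratio was 0.55, 0.26 and 0.30 in Col-3 and 0.15, -0.03 and 0.00 in ara1/2mut, a change of -0.33 (exact permutation p 0.1). The same Col-3 arrays lay above Col-0, where the ratio was -0.07, 0.21 and 0.08, by 0.30. The 3 mutant ratios lay within the Col-0 range.

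The RPS4 pair AT2G17360 and AT5G58420 had ratios of 0.47, 0.28 and 0.16 in Col-3 and 0.16, -0.06 and 0.01 in ara1/2mut, a change of -0.27 (exact permutation p 0.1). The nearest arrays of the groups almost touched, and the Col-0 ratios, from -0.03 to 0.61, overlapped both. The RPS3a pair AT3G04840 and AT4G34670 had a change of -0.23 in the mutant (exact permutation p 0.5), which was 0.02 without ara1/2mut replicate 1. Among pairs with 1 member below the filter, the RPS15 pair AT5G09500 and AT5G09510 had a change of 1.03 in ara1OX, and 0.54 with a pseudocount of 16 added to the signals. The signal of AT5G09500 there was 7.81, 16.9 and 10.3 in Col-0 and 21.2, 16.5 and 27.4 in ara1OX, near or below the filter signal of 22.4.

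**Figure D5:**
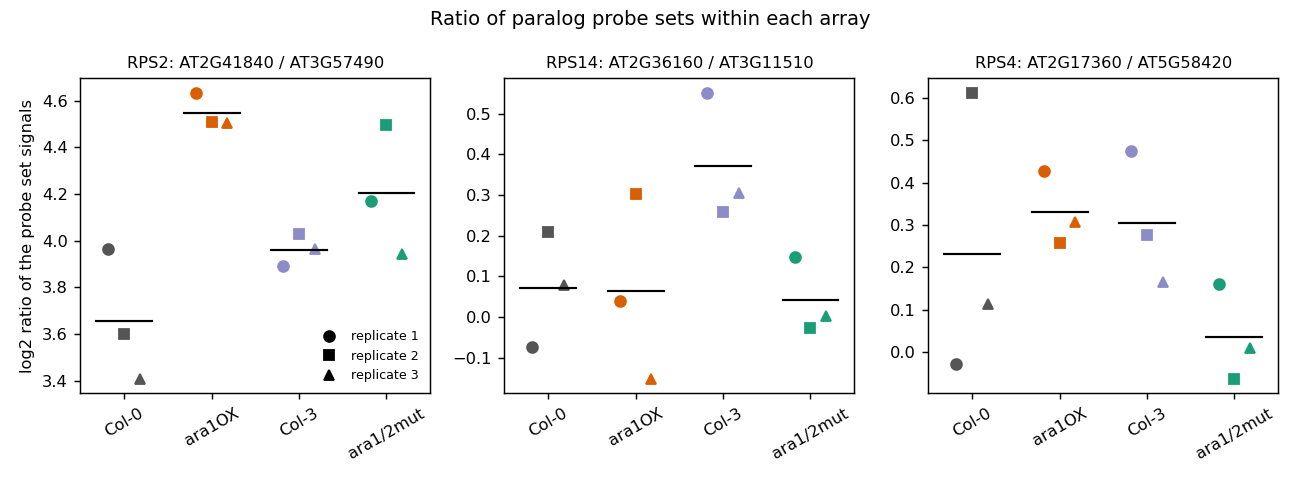
Log2 ratio of the signals of 2 paralog probe sets on each array, by group, for 1 pair each of RPS2, RPS14 and RPS4; symbols are replicates and lines are group means. The RPS2 ratio of the 3 ara1OX arrays lies above that of the 3 Col-0 arrays, 4.55 against 3.66 on average.

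In the mutant the 60S genes lay mostly below 0 as the members did, while the remaining 40S families did not. All of these lists had their lowest mean level on ara1/2mut replicate 1. Of 46 measured 60S genes 43 were tested, and limma called 0 in any comparison. Their unadjusted p was under 0.05 for 0 in ara1OX, against 6.43% of all probe sets, and for 2 in ara1/2mut, against 3.56%. In ara1/2mut the median of the 43 was -0.11 and 36 were below 0, against 48.4% of all probe sets. Their mean level was 9.02, 9.30 and 9.46 over the 3 mutant arrays against 9.40, 9.29 and 9.46 in Col-3. The array that was low for the 40S genes was thus also the lowest for the 60S genes, and mutant replicates 2 and 3 lay within the Col-3 range. In ara1OX the 60S median was 0.03, with 26 above 0. The 60S gene with the smallest p in the mutant was AT3G11250, which encodes the stalk base protein RPP0, at -0.72 (SE 0.21, limma adjusted p 0.999). Of the 31 loci of the remaining 40S families, RPS21 and above, 12 were tested, and 0 passed or had an unadjusted limma p under 0.05 in either line, with medians of 0.05 in ara1OX and 0.02 in ara1/2mut. In the mutant 5 of these 12 lay below 0. Their mean level was 8.21, 8.46 and 8.59 over the 3 mutant arrays against 8.41, 8.29 and 8.64 in Col-3. Of 13 genes for ribosome biogenesis and the TOR pathway 2 were measured, the RNA helicase gene PRH75 and the NOP58 gene AT3G05060, which acts in ribosomal RNA modification. PRH75 had -0.14 (SE 0.16) in ara1OX and 0.57 (SE 0.16, limma adjusted p 0.999) in ara1/2mut, and AT3G05060 had -0.18 and 0.32 (SE 0.18 each). Both genes were lower in Col-3, the wild type of the mutant, than in Col-0, with log2 differences between -0.42 and -0.29.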

How the data were processed

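The deposited table holds 1 MAS5 intensity per probe set and array, on a linear scale, as the submitters' processing notes say. The version of MAS5 is not given in the sources used here. The authors' arrays each had a trimmed mean of 100 after leaving out 2% of values at each end. Here log2 signals were used without further normalization. The 64 control probe sets were left out, and of 22746 others the 13648 at or above the 40th percentile of mean log2 signal were tested in 1 model of 4 groups (limma 3.58.1, R 4.3.3, variance trend, 8 residual and 7.49 prior degrees of freedom), two-sided, with Benjamini-Hochberg adjustment over all of them. Precision is limited by the number of arrays. The procedure was checked on simulated data.

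Members were matched by locus through the platform's gene table and the names of assembly TAIR10.1. Members and lists were chosen with earlier results of these data known. Named members were those with the 5 smallest p-values per direction and comparison, those whose line and wild type did not overlap, the pairs with the largest changes of ratio, the steadiest and those below the filter. The remaining members, RPS sites and AT3G11250 were named after their values were seen. Members' promoter and protein sequences are not analysed here. The values of some single members, which stay in the counts and medians, are not reported here.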

Additional observations from a re-analysis of the deposited data

How the results depend on the processing

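Across all alternatives run, 0 members passed in any comparison. These were a filter at the 60th percentile or none, quantile normalization, a pseudocount of 16, median centring, a fit with no variance trend, one with array weights, one of the compared groups alone, one with a replicate block, the addition of shared probe sets, and the omission of single arrays. The count of all probe sets passing in ara1OX was 3, and became 15 with array weights, 5 with the compared groups alone and 17 with the replicate block, with 3 to 13 when single arrays were left out. For ara1/2mut it was 4 with array weights and 0 to 1 with single arrays left out, and for the wild types it was 0 to 2. For the difference between the changes it was 1 with median centring, 0 with no variance trend, 1 with all arrays numbered 1 left out and 0 to 2 with single arrays left out. The cause of these shifts was not tested. The replicate block moved no other count by over 1.5 times and no median. Same-numbered arrays had correlations of their deviations from 0.033 to 0.137 for ara1OX and Col-0 and from 0.096 to 0.256 for ara1/2mut and Col-3. For the wild types they ran from -0.082 to 0.019. Arrays with different numbers had -0.123 to 0.024, -0.217 to 0.030 and -0.108 to 0.110 in the same order. For each line and its wild type, every same-numbered value was above every different-numbered value. In no comparison were all same-numbered values over 0.1, the limit used, so the main fit has no replicate block. Whether same-numbered arrays share a source of variation was not tested.

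With single arrays left out, the median over the members ran from -0.12 to 0.086 in ara1OX, from -0.28 to 0.00099 in ara1/2mut, from -0.16 to 0.079 between the wild types and from 0.025 to 0.27 for the difference between the changes. The set level difference ran from -0.15 to 0.068, -0.27 to -0.017, -0.18 to 0.039 and -0.0049 to 0.24 in the same order. Leaving out all arrays numbered 1, a choice made after seeing the data, gave a median of -0.081 and a set level difference of -0.082 for the difference between the changes. It also turned AT2G32060 in ara1OX to -0.011, AT4G34670 and AT3G60770 in ara1/2mut to -0.098 and 0.029, and AT2G36160 and AT5G35530 between the wild types to -0.066 and -0.098. AT5G35530 in ara1/2mut turned to -0.0084 with median centring and -0.080 with array weights, and AT3G04230 to 0.075 with array weights for the difference between the changes.

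Single values that changed sign with 1 array left out ran, in ara1OX, from -0.021 to 0.41 for AT2G32060, -0.088 to 0.24 for AT2G41840 and -0.23 to 0.036 for AT4G34670. In ara1/2mut they ran from -0.033 to 0.24 for AT4G34670, -0.11 to 0.13 for AT5G35530 and -0.0089 to 0.27 for AT5G58420. Between the wild types AT5G35530 ran from -0.023 to 0.22, and for the difference between the changes from -0.34 to 0.11 for AT3G04230. Further members outside this choice changed sign too. AT3G04840 turned to -0.065 in ara1OX without ara1OX replicate 3, and to 0.066 in ara1/2mut without ara1/2mut replicate 1. Signal over background limits AT5G09500 and AT2G39590, whose sizes of change are uncertain.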
